A study of Mus musculus with 12 samples.

Results

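Vehicle-treated CD4+ T cells given the phorbol ester PMA (phorbol 12-myristate 13-acetate) and ionomycin were compared with vehicle-treated cells left unstimulated. The members were all libraries whose labels gave ethanol as the pre-treatment, which made 6 of the 12 libraries of the series, 3 stimulated and 3 unstimulated. The cells were total CD4+ T cells of C57BL/6 mouse spleens, purified by removing the other cells. All 6 cultures received ethanol, the solvent of the drug used in the other 6 libraries, for 1 h. The stimulated cultures then received 10 nM PMA and 1 µM ionomycin for 2 h, and the unstimulated cultures did not. The latter are recorded with 0 h of stimulation, which does not give their total time in culture. Whether time in culture differed between the groups was not tested. PMA activates protein kinase C and RasGRP proteins in place of diacylglycerol, and ionomycin raises calcium, so the pair acts downstream of the T cell receptor. The labels give neither the number of animals nor whether spleens were pooled. The adjusted p-values below are therefore set against a variation between libraries that could be technical in origin.

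A resting T cell is small, makes little protein and is held quiescent by transcription factors such as KLF2 and TCF7 and by the cell cycle inhibitor p27. On activation it first transcribes immediate-early genes through the MAP kinase, NF-kB and calcineurin pathways. It then builds ribosomes, takes up amino acids, glucose and iron, makes nucleotides and sterols, and grows for many hours before it divides. Cytokine genes are the best known readout of PMA plus ionomycin. The question here was which other pathways and gene families had moved after 2 h without the drug.

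The libraries held 14674704 to 15197221 estimated counts in unstimulated cells and 10523816 to 13111910 in stimulated cells. Levels below are counts scaled to library size (CPM) after TMM scaling, listed for replicates 1, 2 and 3 in that order, and changes are log2 fold changes, stimulated over unstimulated, with their standard error (SE). Cd4 was detected in every library, at 359, 415 and 354 CPM unstimulated and 185, 208 and 202 CPM stimulated. The full list of 8 T cell markers summed to 2983 to 3722 CPM unstimulated and 4423 to 5817 CPM stimulated. Of these markers 3 were called higher and 4 lower. The defining markers of B cells and of myeloid cells summed highest in the replicate 2 libraries of both groups. The 4 defining B cell markers, which were detected in every library, summed to 94.5 to 855 CPM in unstimulated and 59.5 to 272 CPM in stimulated libraries, and the 4 defining myeloid markers to 28.7 to 159 and 27.2 to 155 CPM. The full list of 12 B cell markers, most of whose counts were from the immunoglobulin genes Ighm and Igkc, summed to 3829 to 6149 and 3638 to 5844 CPM, with stimulated replicate 1 the highest of its group. The full list of 14 myeloid and dendritic markers summed to 107 to 374 and 92.1 to 309.9 CPM. The 11 CD8 and NK markers summed to 159 to 190.0 and 251 to 304 CPM, lowest among unstimulated libraries in replicate 2, and Cd8a was at 0 in stimulated replicate 3. None of the 12 B cell markers was called by edgeR. At an unadjusted p under 0.05 the count was also 0, DESeq2 called 1 lower, and a fit with the replicate number as a block called 3 higher and 3 lower. Each list count was computed again without both replicate 2 libraries. Beside the B cell and myeloid markers, this moved a count by over 1.5 times for cytosolic ribosomal proteins, replication licensing, N6-methyladenosine proteins, the vacuolar ATPase, Gimap GTPases and the falls among cytokines. In RNA from whole cultures, fewer cells of a type and less RNA per cell cannot be told apart.

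Of 13360 genes tested, 3115 rose and 3300 fell at an edgeR adjusted p under 0.05, which is 48.0% of the genes (23.3% higher and 24.7% lower). At least 2-fold rises were called for 15.1% of the genes and at least 2-fold falls for 16.7%. The median change over all tested genes was -0.06 on the log2 scale. The rises took over the libraries: genes called higher held 33.3, 31.9 and 34.0% of the counts in the unstimulated libraries and 63.3, 61.5 and 63.5% in the stimulated ones. Genes called lower went from 26.1, 22.4 and 26.8% to 7.10, 7.55 and 7.72%. With this shift in composition the scaling matters. Scaling to library totals in place of TMM moves the median of all genes by a further -0.56, and gives 1778 rises and 5782 falls. A change below is relative to the TMM scaling unless stated. Each list is read against the 23.3% and 24.7% of all genes.

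**Figure D1:**
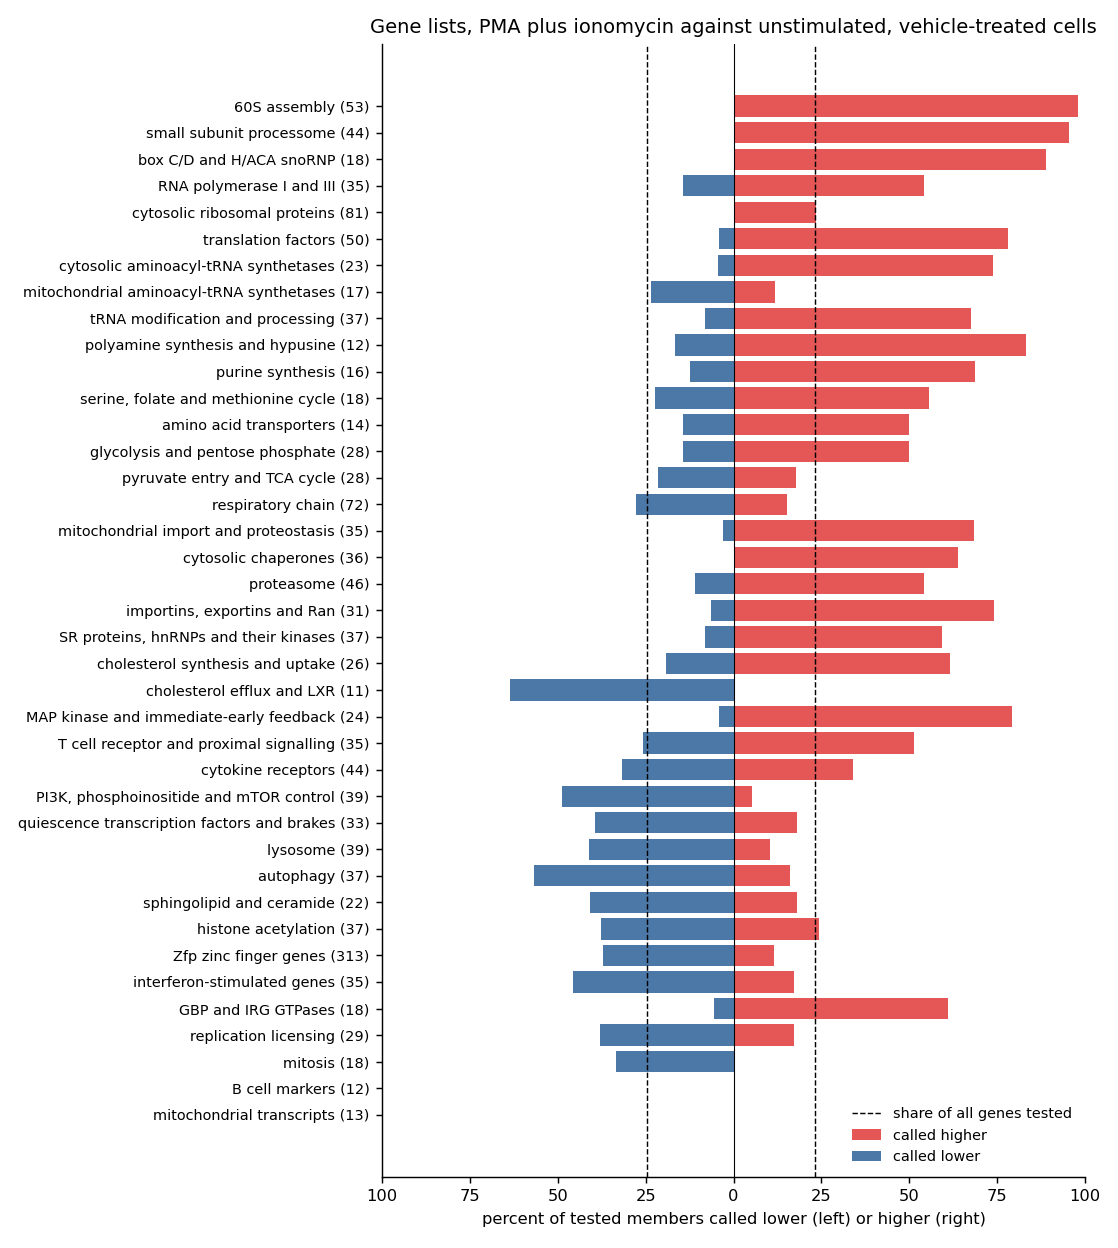
Share of tested members called higher (right) or lower (left) at an edgeR adjusted p under 0.05 for the gene lists of the comparison, in percent, with the share over all 13360 tested genes (23.3% higher, 24.7% lower) drawn for reference. The lists of large subunit assembly, the small subunit processome and small nucleolar particles lie at the higher end. Cholesterol efflux, autophagy and mTOR control lie at the lower end.

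The factors that assemble ribosomes formed the most uniformly raised group. Of 53 factors of the large subunit, 52 rose with a median change of 2.37. Of 44 factors of the small subunit processome, the particle that processes the precursor of 18S RNA, 42 rose with a median of 2.08. Of 18 proteins that form or assemble the small nucleolar particles guiding RNA modification, 16 rose with a median of 2.17. In RNA polymerases I and III, which transcribe ribosomal and transfer RNA, 19 of 35 subunits and factors rose and 5 fell, with a median of 0.95. Under library totals 17 of the 35 rose and 11 fell. Together these lists went from 1.08, 1.12 and 1.19% of all counts in unstimulated libraries to 3.28, 3.24 and 3.21% in stimulated ones.

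Sequences are shown for 3 of these genes because their promoters hold the E-box, CACGTG, the site that MYC and related proteins read. The genes were chosen after their values were seen. Each sequence is the 250 bases upstream of the start of the RefSeq gene model on GRCm38.p6, 5′ to 3′ on the strand of the gene, with the E-box in capitals. Nop2 (chr6:125131633-125131882, plus strand) encodes a methyltransferase of 28S RNA, Cd3eap (chr7:19359484-19359733, minus strand) a subunit of RNA polymerase I, and Utp18 (chr11:93885767-93886016, minus strand) a component of the small subunit processome.
Nop2: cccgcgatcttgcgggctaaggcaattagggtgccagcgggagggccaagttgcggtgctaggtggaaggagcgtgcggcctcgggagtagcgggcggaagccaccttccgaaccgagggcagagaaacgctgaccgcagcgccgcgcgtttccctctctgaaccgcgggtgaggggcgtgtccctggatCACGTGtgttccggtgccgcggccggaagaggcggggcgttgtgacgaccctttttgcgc
Cd3eap: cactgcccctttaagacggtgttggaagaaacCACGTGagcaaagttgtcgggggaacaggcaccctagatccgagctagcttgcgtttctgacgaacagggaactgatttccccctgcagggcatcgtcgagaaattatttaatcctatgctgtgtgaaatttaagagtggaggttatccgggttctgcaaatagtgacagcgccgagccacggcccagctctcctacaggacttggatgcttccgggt
Utp18: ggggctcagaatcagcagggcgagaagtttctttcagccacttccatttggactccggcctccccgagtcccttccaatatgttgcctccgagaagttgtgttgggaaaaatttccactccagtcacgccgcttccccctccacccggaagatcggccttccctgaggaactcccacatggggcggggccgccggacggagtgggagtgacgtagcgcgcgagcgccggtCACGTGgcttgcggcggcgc
The E-box lies 60 bases upstream of the start in Nop2, 218 in Cd3eap and 20 in Utp18. CACGTG, which reads the same on both strands, was present in 11.6% of the 121 ribosome assembly promoters that could be matched, in 11% of the promoters of genes that rose at least 2-fold, in 7.75% of those that fell at least 2-fold, and in 8.64% of all 8634 matched promoters. In the 100 bases before the start the share was 4.96% of the ribosome assembly promoters and 4.86% of all, so the excess was not seen in the shorter window. The ETS motif CCGGAAG, searched on both strands, was in 33.1% of the ribosome assembly promoters and in 15.4% of all. A match is a description of these letters only.

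Nop2 was at 50.9, 73.1 and 51.6 CPM in the unstimulated libraries and 721, 657 and 659.8 CPM in the stimulated ones, a change of 3.54 ± 0.18 (adjusted p = 1.64e-06). Utp18 went from 55.6, 79.5 and 68.7 to 414, 341 and 337 CPM. Every stimulated library of both genes stood far above every unstimulated one, and the stimulated values lay close together. Polr1b, the second largest subunit of RNA polymerase I (mm10 chr2:129100995-129126594, plus strand), was at 31.2, 40.6 and 22.4 CPM and then at 425, 442 and 352 CPM, a change of 3.69 ± 0.23. Ubtf, the factor that opens ribosomal DNA for transcription, rose by 1.54 ± 0.15. Maf1, the repressor of RNA polymerase III, moved the other way, from 519, 455 and 471 to 128, 134 and 127 CPM (-1.89 ± 0.12, adjusted p = 4.15e-06). The polymerase III subunit Polr3d rose by 2.69. So within this list the repressor fell while a subunit of its target enzyme rose.

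Among the large subunit factors the widest changes were in Rrp1b (4.65), Ppan (4.11), Grwd1 (3.92) and Noc3l (3.85). Among the small subunit factors they were in Pwp2 (3.68), Rrp9 (3.49), Tsr1 (3.36) and Rrp12 (3.34). Naf1, which assembles the H/ACA particles, went from 1.09, 1.97 and 1.99 to 42.7, 38.8 and 45.2 CPM (4.64 ± 0.27), and Nop56, a core protein of the C/D particles, from 443, 344 and 543 to 2563, 2075 and 2376 CPM (2.40 ± 0.20). In the RNA exosome, the nuclease complex that trims ribosomal RNA precursors, 6 of 13 subunits and cofactors rose under TMM scaling with a median of 0.17, led by Dis3 at 2.56, against 4 rises and 3 falls and a median of -0.40 under library totals.

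The ribosomal proteins themselves changed far less than the factors that assemble them. Of 81 cytosolic ribosomal proteins, 19 rose under TMM scaling with a median of 0.34, but 3 rose and 19 fell under library totals, so the direction of this list depends on the scaling. A share of 23.5% called higher is close to the 23.3% of all genes. It also depended on single libraries. Without unstimulated replicate 2, the library with the most ribosomal RNA reads at 7.65% of counts in 1 ribosomal RNA locus, 46 rose, and without both replicate 2 libraries 45 rose. Leaving out any other single library gave 5 to 9 rises, with 4 falls when unstimulated replicate 3 was left out. The replicate block called 34 higher and DESeq2 30. Rpl12 changed most, from 56.6, 47.3 and 54.5 to 135, 105 and 115 CPM (1.16 ± 0.14), and Rack1 rose by 0.96.

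**Figure D2:**
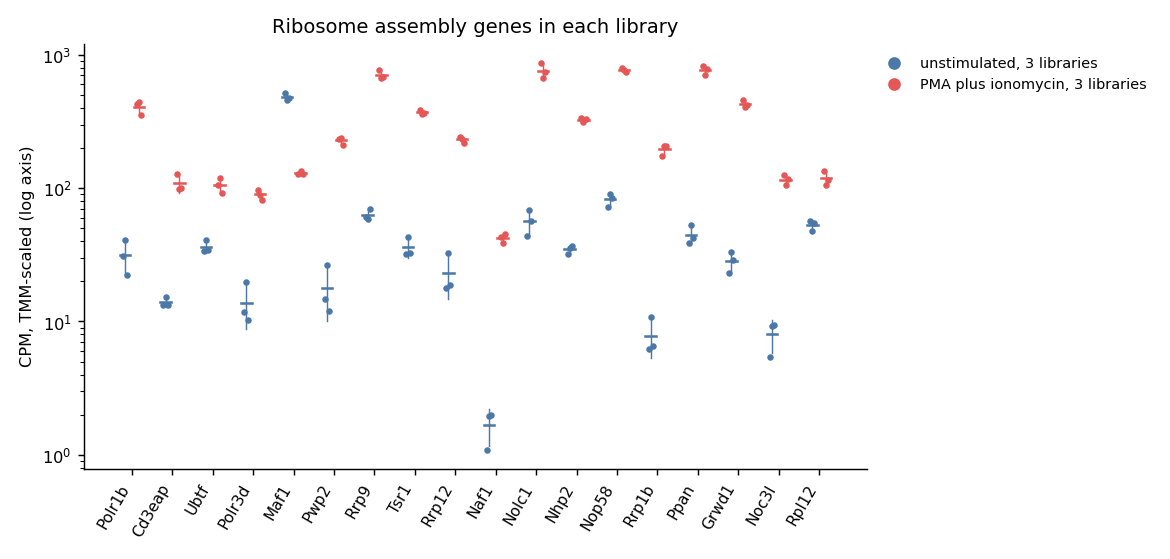
TMM-scaled CPM, on a log axis, of 18 genes of ribosome assembly, RNA polymerases I and III and the ribosome in each of the 3 unstimulated and 3 stimulated libraries (points), with the mean (bar) and SD (line). The stimulated libraries lie above the unstimulated ones for the polymerase subunits and assembly factors and below them for Maf1, while Rpl12 rises by 1.16 on the log2 scale.

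Translation and the transfer RNA pathway rose alongside. Of 50 translation factors, 39 rose and 2 fell, with a median of 0.96, against 26 and 9 under library totals. Eif1a, which scans for the start codon with the small subunit, went from 72, 86.2 and 62 to 463, 476 and 457 CPM (2.66 ± 0.15). Etf1, the release factor, rose by 2.38 ± 0.18 and Eif2b3, a subunit of the exchange factor that reloads eIF2 with GTP, by 2.65 ± 0.30. Eif4e3, an atypical cap-binding protein, fell by 2.22. Of 23 cytosolic aminoacyl-tRNA synthetases and their scaffold proteins, 17 rose and 1 fell, with a median of 1.31, against 2 higher and 4 lower of 17 mitochondrial synthetases. Cytosolic Rars, Tars and Iars rose by 2.21, 2.18 and 2.08, while mitochondrial Hars2 and Iars2 changed by -1.55 and -0.92.

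Enzymes that modify or process transfer RNA rose in 25 of 37 cases and fell in 3, against 21 and 8 under library totals. Pus7, a pseudouridine synthase, went from 7.12, 20.6 and 9.58 to 229, 240.5 and 214 CPM (4.19 ± 0.41). Trmt61a, the catalytic subunit of an adenosine methyltransferase of tRNA, went from 3.53, 8.21 and 2.38 to 83.8, 75.5 and 71.4 CPM (4.03 ± 0.44). Nsun2 and Mettl1, which methylate cytosine and guanosine in tRNA, rose by 2.75 and 2.74. Tsen34, a subunit of the splicing endonuclease for tRNA introns, fell by 2.02.

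Most genes of the polyamine list rose. Polyamines are small cations needed for growth, and spermidine is the donor for the hypusine residue of the translation factor eIF5A. Of 12 genes tested, 10 rose and 2 fell, with a median of 1.19. The list holds the antizymes Oaz1 and Oaz2 and the breakdown enzymes Sat1, Smox and Paox beside the genes of synthesis. The rises were therefore not all in synthesis. Srm, spermidine synthase (mm10 chr4:148591503-148594993, plus strand), was at 38, 35 and 37.1 CPM unstimulated and 711, 616 and 619 CPM stimulated (4.14 ± 0.14, adjusted p = 6.82e-07). Odc1, ornithine decarboxylase and the first committed enzyme, went from 186, 231 and 385 to 1227, 661 and 1175 CPM (1.93 ± 0.34). Azin1, the inhibitor of ODC antizyme, rose by 1.71 while Oaz2, an antizyme that triggers ODC degradation, fell by 1.04. The groups did not overlap for any of these 4 genes, as was the case for 58.5% of all genes tested.

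Purine synthesis rose in 11 of 16 genes and fell in 2, with 1 fall without unstimulated replicate 1 or any 1 of the stimulated libraries. Ppat, the first committed enzyme, went from 49.4, 52.4 and 49.7 to 349.7, 345 and 315 CPM (2.74 ± 0.12). Impdh1, which commits inosine monophosphate to guanine nucleotides, rose by 1.89, and Adss and Adsl on the adenine branch by 1.57 and 1.55. In pyrimidine and deoxynucleotide synthesis 7 of 18 rose and 4 fell, but 5 rose and 8 fell under library totals, and without unstimulated replicate 1 it was 4 and 3. Ctps, which makes CTP from UTP, rose by 3.67 ± 0.14, Uck2, which salvages uridine and cytidine, by 2.54 ± 0.20 and Umps, which completes UMP, by 2.63 ± 0.22. Dck, which salvages deoxycytidine for DNA, fell by 2.83 and Ctps2, the second CTP synthase, by 1.74.

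The paralogs changed places. Per length, in TPM (abundance scaled for transcript length and depth), Ctps2 stood at 222 ± 42.5 (SD, n = 3) and Ctps at 13.6 ± 1.06 in unstimulated cells, whereas in stimulated cells Ctps was at 121 ± 1.60 and Ctps2 at 44.3 ± 0.70. Among the salvage kinases, Dck was at 87.5 ± 7.69 TPM and Uck2 at 24.7 ± 6.34 TPM in unstimulated cells. In stimulated cells Uck2 was at 151 ± 5.09 TPM and Dck at 8.58 ± 0.78 TPM. In both pairs the order of the levels reversed without overlap of any library. These pairs were set side by side after their values were seen.

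The serine, folate and methionine cycle, which supplies one-carbon units for nucleotides and methylation, rose in 10 of 18 genes and fell in 4, with a median of 1.09. Shmt1, the cytosolic serine hydroxymethyltransferase, went from 7.99, 9.19 and 6.48 to 318, 257 and 284 CPM (5.18 ± 0.18). Mthfd2, a mitochondrial enzyme of the folate cycle, went from 40.3, 54.3 and 45 to 276, 234 and 253 CPM (2.45 ± 0.15), and Slc19a1, the folate carrier, rose by 2.91. The catalytic subunit Mat2a, which makes S-adenosylmethionine, rose by 2.90 ± 0.16 while its regulatory partner Mat2b fell by 1.82.

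**Figure D3:**
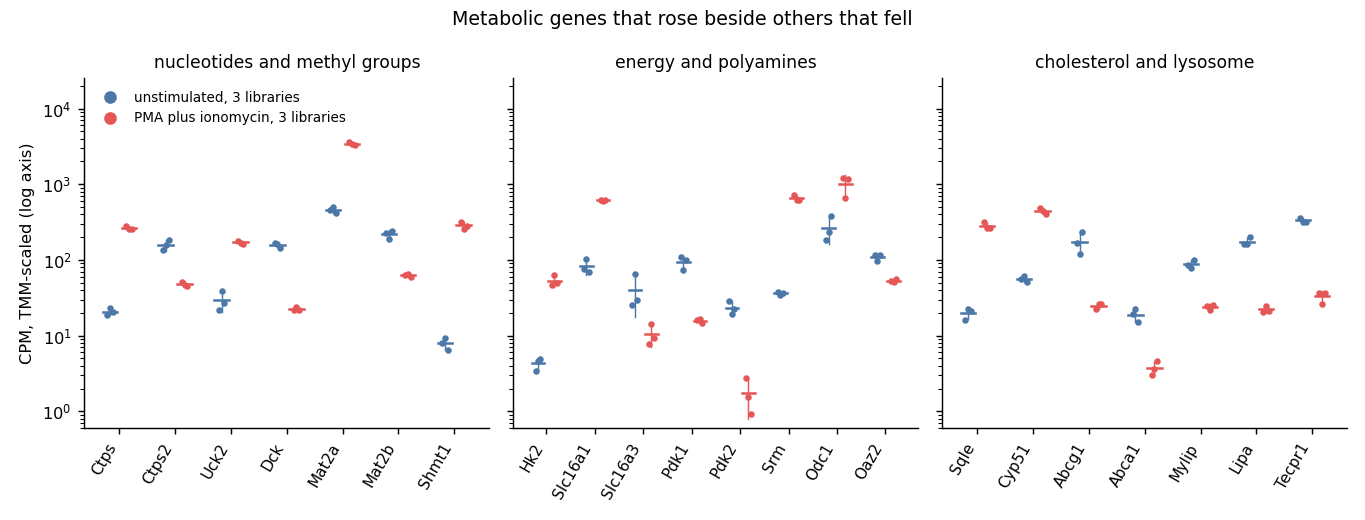
TMM-scaled CPM, on a log axis, of 22 metabolic genes in each of the 3 unstimulated and 3 stimulated libraries (points), with the mean (bar) and SD (line). Genes that rose, such as Ctps, Uck2, Srm and Sqle, are drawn beside genes of the same area of metabolism that fell, such as Ctps2, Dck, Oaz2 and Abcg1.

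Several nutrient carriers rose. Among amino acid transporters 7 of 14 rose and 2 fell. The arginine carrier Slc7a1 went from 24.1, 40.8 and 13.5 to 366, 392 and 324 CPM (3.79 ± 0.41), and the leucine carrier Slc7a5 from 9.03, 10.6 and 15.2 to 126, 88.7 and 144 CPM (3.36 ± 0.26). Slc43a2, another carrier of large neutral amino acids, fell by 2.59, and Slc38a9, the lysosomal arginine sensor, by 1.94. Tfrc, the transferrin receptor that brings in iron (mm10 chr16:32608920-32632794, plus strand), went from 26.6, 41.4 and 25.4 to 420.2, 532 and 531 CPM (3.99 ± 0.23, adjusted p = 2.43e-06). Tfrc is often listed as a housekeeping gene, and it changed more than any other of the 16 such genes tested.

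In glycolysis and the pentose phosphate pathway 14 of 28 rose and 4 fell, with 2 falls without stimulated replicate 2 and 1 without stimulated replicate 3. Under library totals 11 rose and 7 fell, with a median of 0.11 against 0.66 with TMM. Hk2, the inducible hexokinase, rose by 3.63 ± 0.22, Pgam1 by 2.84 ± 0.19 and Hk1 by 2.19 ± 0.14. Hk1 was nevertheless the higher hexokinase per length in both states, at 48.9 ± 5.20 TPM against 3.41 ± 1.07 for Hk2 in unstimulated cells and 159 ± 6.46 against 22.2 ± 8.41 in stimulated cells (SD, n = 3). The lactate and pyruvate carrier Slc16a1 went from 75.1, 104 and 69.1 to 621, 601 and 624 CPM (2.90 ± 0.18). Slc16a3, another lactate carrier, was among the falls, from 35.5 ± 17.8 to 5.68 ± 1.11 TPM (SD, n = 3). It was not called with all 12 libraries in the fit (edgeR adjusted p = 0.0826).

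For pyruvate entry and the tricarboxylic acid cycle 5 of 28 rose and 6 fell, against 1 and 16 under library totals. The shares with TMM, 17.9% and 21.4%, were both below those of all genes. The 2 largest changes were falls of kinases that switch off pyruvate dehydrogenase: Pdk1 went from 108, 73.7 and 101 to 15.9, 16.6 and 14.6 CPM (-2.58 ± 0.18) and Pdk2 from 29.1, 19.1 and 22.4 to 2.79, 1.54 and 0.914 CPM (-3.75 ± 0.38). In the respiratory chain 11 of 72 rose and 20 fell, with a median of -0.22. That count moved with single libraries, to 6 and 18 without unstimulated replicate 1, 10 and 32 without unstimulated replicate 2 and 7 and 15 without stimulated replicate 1. Under library totals 3 rose and 49 fell, and under upper quartile scaling 8 and 31. Cytochrome c, Cycs, rose by 1.63 ± 0.17 and the complex I subunit Ndufv3 fell by 2.12. Import and folding of mitochondrial proteins rose in 24 of 35 genes and fell in 1, with a median of 0.88, against 16 and 8 and a median of 0.31 under library totals. Chchd4 and Timm10, which carry proteins into the intermembrane space, rose by 2.88 ± 0.13 and 2.84 ± 0.30, and Hspd1, the mitochondrial chaperonin, went from 119.5, 163 and 129.9 to 857, 748 and 789 CPM (2.54 ± 0.16). In the mitochondrial ribosome 20 of 78 rose and 16 fell, or 25.6% and 20.5%, near the shares of all genes. Under library totals 10 rose and 46 fell, and under upper quartile scaling 18 rose and 22 fell. The majority turned as well with no low-count filter (16 and 19), without unstimulated replicate 1 (14 and 15) or 2 (17 and 20), and without both replicate 2 libraries (17 and 18). Among 13 transcripts of the mitochondrial genome none was called by edgeR with TMM scaling, 1 was higher at an unadjusted p under 0.05 and DESeq2 called 1 higher. Under library totals edgeR called 3 lower.

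Sterol synthesis and sterol export moved in opposite directions. Of 26 genes of cholesterol synthesis and uptake, 16 rose and 5 fell, the falls numbering 3 without stimulated replicate 3. Under library totals 12 rose and 9 fell. Sqle, squalene epoxidase, went from 16, 22.4 and 20.9 to 317, 268 and 266 CPM (3.84 ± 0.17). Cyp51 and Idi1 rose by 3.01 and 2.76. Of 11 genes of cholesterol efflux and the LXR receptors, 7 fell, with a median of -1.10. The efflux pump Abcg1 went from 167, 121 and 234 to 22.2, 26.3 and 26.5 CPM (-2.80 ± 0.24) and Abca1 from 19.1, 22.3 and 15 to 3.01, 3.62 and 4.57 CPM (-2.33 ± 0.26). Every stimulated library of both pumps lay below every unstimulated one. The NFY motif CCAATC, searched on both strands, was in 61.1% of the 18 matched promoters of the synthesis list and in 20.7% of all matched promoters.

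More lysosomal and autophagy genes fell than rose. In the lysosome list 4 of 39 rose and 16 fell, with a median of -0.35. Lipa, which frees cholesterol from its esters, fell by 2.97 and the acid sphingomyelinase Smpd1 by 2.68, whereas the channel Mcoln2 rose by 2.32. Of 37 autophagy genes 6 rose and 21 fell, with a median of -0.63 and with 3 and 18 without unstimulated replicate 1. Atg13, a subunit of the kinase complex that starts autophagy, went from 93.6, 102 and 80.1 to 16.5, 15.2 and 15.8 CPM (-2.54 ± 0.15), and Tecpr1, which acts in autophagosome maturation, from 361, 321 and 319 to 36.2, 25.9 and 37 CPM (-3.34 ± 0.17). Atg14 and Atg9a fell by 2.46 and 2.41. In sphingolipid metabolism 4 of 22 rose and 9 fell, with 2 rises without unstimulated replicate 1 or stimulated replicate 2. Sphk1, which makes sphingosine 1-phosphate, rose from 2.23, 0.694 and 0.388 to 20.8, 19.4 and 16 CPM (4.07 ± 0.57), while Smpd2 and Ugcg fell by 2.58 and 2.11.

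Protein folding in the cytosol rose in 23 of 36 chaperone genes, with a median of 1.05. With library totals 17 rose and 5 fell, with a median of 0.49. Hsp90aa1, Cct5, Hsph1 and Hspa8 rose by 2.11, 1.94, 1.90 and 1.72. In the endoplasmic reticulum 13 of 28 stress and folding genes rose and 5 fell, against 9 and 9 under library totals. Hspa5, the main chaperone there, rose by 2.07 ± 0.17, while the kinase Eif2ak3 and the pseudokinase Trib3, both of the stress response, fell by 1.38 and 2.09.

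In the proteasome 25 of 46 genes rose and 5 fell under TMM scaling, but 8 rose and 12 fell under library totals. The falls numbered 3 when unstimulated replicate 1 or 3 or stimulated replicate 1 or 3 was left out. Psme3, the nuclear activator PA28 gamma, rose from 119, 119 and 145 to 702, 627 and 651 CPM (2.37 ± 0.14). The catalytic subunits of the immunoproteasome are Psmb8, Psmb9 and Psmb10, and all 3 fell. Psmb8 went from 454, 383 and 571 to 194, 169 and 176 CPM (-1.38 ± 0.17) and Psmb10 from 76.5, 75.5 and 100.1 to 30.9, 27.7 and 28.9 CPM (-1.53 ± 0.16). Psmb9, named after its values were seen, fell by 0.65. All 3 belong as well to the list of antigen presentation by MHC class I, where 6 of 18 rose and 6 fell, against 1 and 9 under library totals.

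Nuclear transport rose in 23 of 31 importins, exportins and Ran cycle genes and fell in 2, with a median of 1.04. Leaving out unstimulated replicate 1 or 3 or stimulated replicate 1 or 3 left 1 fall. With library totals 16 rose and 5 fell. Ipo4 and Ipo5, importins of histones and ribosomal proteins, rose by 2.92 ± 0.23 and 2.79 ± 0.17, and Ran, the GTPase that drives transport, went from 226, 286 and 258 to 1096, 969 and 990.1 CPM (1.99 ± 0.15). Of 20 nucleoporins 10 rose and 1 fell, but 5 rose and 7 fell under library totals, and 6 rose without unstimulated replicate 1. Nup98 rose by 2.17 ± 0.24.

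Among splicing regulators of the SR and hnRNP families and their kinases 22 of 37 rose and 3 fell. Under library totals 12 rose and 7 fell, with a median of 0.014 against 0.58 with TMM. Hnrnpab and Hnrnpu rose by 2.90 and 2.79 and Srsf7 by 1.69, while the kinases Srpk2 and Clk1 fell by 0.95 and 0.75. Proteins that write, erase or read N6-methyladenosine rose in 5 of 16 cases and fell in 1, but 2 rose and 4 fell under library totals, the replicate block gave 7 and 2, and 2 fell without unstimulated replicate 2 or both replicate 2 libraries. The reader Ythdf2 rose by 1.73 ± 0.12. Regulators of mRNA decay rose in 13 of 38 cases and fell in 8, but 5 rose and 16 fell under library totals. Zfp36l1, which binds AU-rich elements, went from 289.7, 303 and 266 to 3059, 2253 and 2926 CPM (3.26 ± 0.18), and the endonuclease Zc3h12a, Regnase-1, from 15.6, 16.4 and 10.2 to 78, 65.8 and 74.2 CPM (2.37 ± 0.20). Zfp36 rose by 1.77 ± 0.25, and the exonuclease Xrn1 fell by 1.55.

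Of 24 MAP kinase regulators and immediate-early feedback genes, 19 rose and 1 fell, with a median of 1.87. Ier3 went from 3.1, 8.44 and 1.5 to 127, 117 and 90.1 CPM (4.68 ± 0.65), and Spry1, an inhibitor of Ras signalling, from 8.81, 9.42 and 5.98 to 202, 196 and 184 CPM (4.58 ± 0.19). Plk3 rose by 4.28 ± 0.23 and Dusp2, a nuclear phosphatase of ERK and p38, by 3.41 ± 0.38. The exception was Dusp10, a phosphatase of p38 and JNK, which went from 205, 234 and 218 to 34.9, 33.6 and 49.5 CPM (-2.48 ± 0.17). The promoter of Plk2, a kinase of the same list that was chosen after its values were seen and rose by 1.46 ± 0.17, is shown because it holds the cyclic AMP response element TGACGTCA, in capitals, 62 bases upstream of the start (chr13:110394794-110395043, plus strand, GRCm38.p6).
Plk2: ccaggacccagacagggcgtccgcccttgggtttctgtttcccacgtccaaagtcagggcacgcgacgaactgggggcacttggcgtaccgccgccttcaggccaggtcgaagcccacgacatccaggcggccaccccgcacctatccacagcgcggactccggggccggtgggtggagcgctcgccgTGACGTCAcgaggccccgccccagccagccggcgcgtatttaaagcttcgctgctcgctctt
That motif, which reads the same on both strands, was in 3.74% of the promoters of genes that rose at least 2-fold, 1.81% of those that fell at least 2-fold and 2.92% of all matched promoters. The AP-1 motif TGACTCA, searched on both strands, was in 4.41, 2.00 and 2.87%.

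PMA acts in place of diacylglycerol, and the genes of that pathway moved both ways. In diacylglycerol, protein kinase C and Ras signalling 12 of 33 rose and 9 fell, but 3 rose and 12 fell under library totals and 8 rose and 9 fell under upper quartile scaling and without unstimulated replicate 1 or stimulated replicate 3. Rasgrp2 went from 166, 152 and 172 to 42.9, 30.2 and 43.9 CPM (-2.07 ± 0.17), while Rasgrp1 rose by 1.02 ± 0.14. Per length, Rasgrp2 stood above Rasgrp1 in unstimulated cells, at 352 ± 13.5 against 51.7 ± 8.34 TPM (SD, n = 3), and at about the same level in stimulated cells, at 70.9 ± 5.28 against 66.6 ± 4.47 TPM, where the values of the libraries overlapped. Dgka, a kinase that removes diacylglycerol, fell by 1.60 and Prkcz by 2.13, and Prkch rose by 1.75.

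Genes that control PI3K and mTOR fell in 19 of 39 cases and rose in 2, with a median of -0.74 and with 5 rises under the replicate block. Pik3ip1, an inhibitor of PI3K, went from 102, 83.3 and 109.8 to 12.9, 16.8 and 13.6 CPM (-2.77 ± 0.18), and Sesn1, an inhibitor of mTORC1, from 156, 156 and 174 to 27.9, 21.3 and 33.5 CPM (-2.56 ± 0.18). Pik3r5 and Phlpp1 fell by 2.14 and 1.93. The falls thus covered both inhibitors and a regulatory subunit of PI3K itself. Rheb, the GTPase that activates mTORC1, rose by 1.59 ± 0.16.

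In the T cell receptor complex and proximal signalling 18 of 35 rose and 9 fell, but 11 rose and 15 fell under library totals. Tagap rose by 4.2 ± 0.19, the adaptor Lcp2 by 3.34 ± 0.22 and the kinase Zap70 by 2.16 ± 0.16. A pair of related phosphatase-family proteins that restrain receptor signalling exchanged ranks. Ubash3a went from 169, 209 and 238 to 31.5, 21.7 and 34.5 CPM (-2.82 ± 0.21), and Ubash3b from 47.6, 58.4 and 49.2 to 609, 532 and 574 CPM (3.47 ± 0.15). Per length, the pair went from 186 ± 32.9 and 23.1 ± 7.48 TPM to 21.8 ± 2.80 and 222 ± 5.15 TPM (SD, n = 3). Among ubiquitin ligases of T cell restraint and their adaptors 9 of 19 rose and 3 fell, against 6 and 6 under library totals. Ndfip1 and Ndfip2, which activate the ligase Itch, rose by 1.65 and 1.30, and the deubiquitinase Cyld fell by 1.51.

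**Figure D4:**
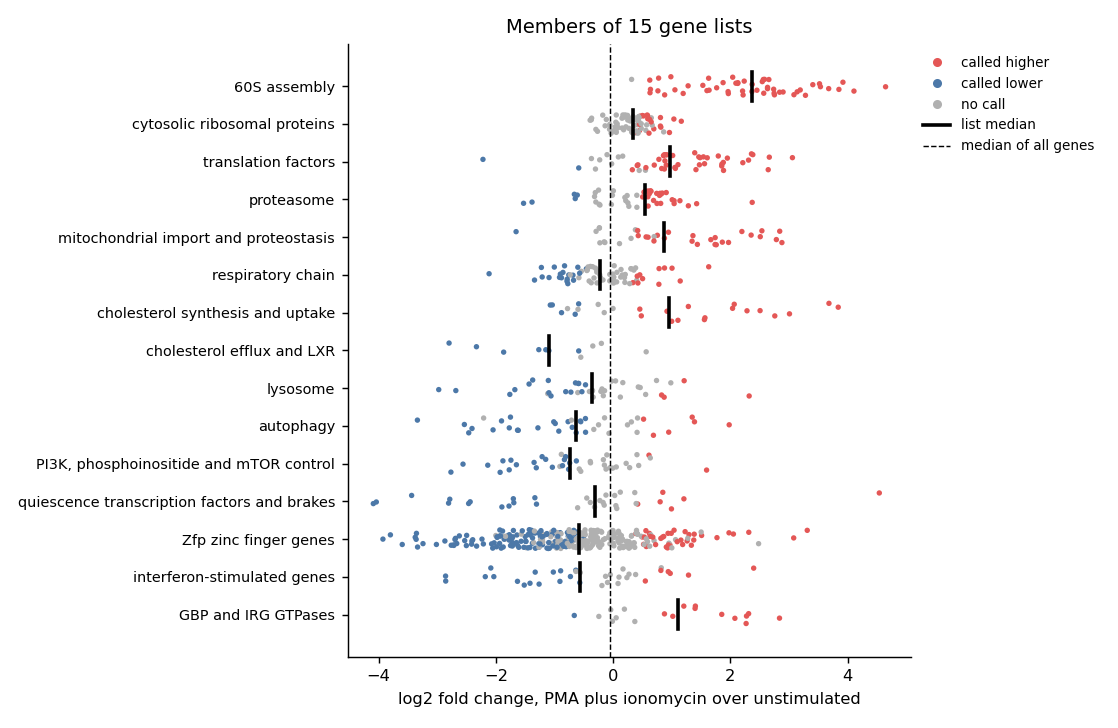
Log2 fold change, stimulated over unstimulated, of every tested member of 15 gene lists, 1 point per gene, coloured by the edgeR call, with the median of each list and of all genes (-0.06, dashed). The large subunit assembly factors centre at 2.37, the cytosolic ribosomal proteins at 0.34, and the autophagy and mTOR control lists at -0.63 and -0.74.

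Quiescence factors and growth brakes fell in 13 of 33 cases and rose in 6, with a median of -0.32. Cdkn1b, which encodes p27 (mm10 chr6:134920401-134925513, plus strand), went from 161, 101 and 106 to 7.13, 7.24 and 7.2 CPM (-4.09 ± 0.22, adjusted p = 1.9e-06). Txnip, a brake on glucose uptake, went from 230.0, 449 and 254 to 17.4, 17.8 and 21.6 CPM (-4.04 ± 0.29). Klf2 fell by 2.44, with stimulated values of 15, 7.51 and 20.7 CPM below every unstimulated value, and Tcf7 and Tsc22d3 by 2.81 and 3.44. Gfi1, a repressor, rose by 4.54 ± 0.29. The promoter of Cdkn1b, which fell most in this list, held neither the FOXO motif GTAAACA nor the NFY motif and is not shown. That of Txnip (chr3:96557707-96557956, plus strand, GRCm38.p6), chosen after its values were seen, is shown because it holds both. The FOXO motif lies 121 bases upstream of the start and the NFY motif, on the minus strand, 138 bases upstream, both in capitals.
Txnip: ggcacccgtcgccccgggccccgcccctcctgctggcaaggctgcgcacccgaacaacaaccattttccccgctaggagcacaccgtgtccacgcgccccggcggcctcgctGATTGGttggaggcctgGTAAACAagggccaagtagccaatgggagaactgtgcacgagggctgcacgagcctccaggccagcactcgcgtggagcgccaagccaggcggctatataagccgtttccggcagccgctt
GTAAACA, searched on both strands, was in 2.78% of the promoters of genes that fell at least 2-fold, 1.84% of those that rose at least 2-fold and 2.11% of all. NFY matches were in 22.4, 17.8 and 20.7%. Of the 28 matched promoters of quiescence factors and brakes, 7.14% (2 promoters) held the FOXO motif and 32.1% the NFY motif. In the 100 bases before the start these shares were 0% and 10.7%, against 0.498% and 13.6% of all matched promoters. Neither excess was thus seen in the shorter window.

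Of 25 genes of entry into the cell cycle 7 rose and 7 fell, against 6 and 12 under library totals. At 28% each way, both shares were near the 23.3% and 24.7% of all genes. Ccnd2, cyclin D2, went from 289, 229 and 355 to 4149, 3196 and 4044 CPM (3.71 ± 0.22), and the retinoblastoma relative Rbl2 fell by 2.87. Cdkn1a, which encodes p21, rose by 2.62 ± 0.16 while its relative Cdkn1b fell. Of 18 mitosis genes 6 fell, with a median of -0.56 and edgeR calling 0 higher, as did DESeq2 and the same test at an unadjusted p under 0.05. In replication licensing 5 of 29 rose and 11 fell, with 3 rises when any 1 of the 6 libraries was left out. Gmnn, geminin, and Gins4 fell by 1.86 and 1.76, and Pcna rose by 1.24 ± 0.14.

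In the BCL2 family 7 of 16 rose and 3 fell. Bcl2l1, the survival protein Bcl-xL, went from 36.2, 34.1 and 32.6 to 259, 275 and 241 CPM (2.91 ± 0.13). Bad and Bbc3, which promote cell death, went from 13.1, 15.8 and 17.3 to 0.891, 1.54 and 2.28 CPM and from 14, 8.09 and 13.5 to 3.45, 3.35 and 1.37 CPM (-3.29 ± 0.35 and -2.11 ± 0.39). The third gene that fell was Bmf, also death-promoting, from 3.64, 10.3 and 2.49 to 0.780, 0.452 and 0.228 CPM (-3.47 ± 0.68), named after its values were seen. The death-promoting Bcl2l11 nevertheless rose, by 1.27 ± 0.17. Mcl1, a survival gene, changed by -0.44 ± 0.17 (edgeR adjusted p = 0.0623, and 0.0143 with the replicate block). The Bcl2a1 genes are near-identical copies among which reads cannot be assigned with certainty.

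The circadian clock list rose in 8 of 20 cases and fell in 3, against 6 and 6 under library totals. Per1 went from 108, 139 and 68.2 to 359, 335 and 314 CPM (1.68 ± 0.23) and Ciart, a repressor of the clock, rose by 2.88. Arntl, which encodes the activator BMAL1, fell by 0.75. Nr1d1 rose by 1.8 ± 0.25, and its relative Nr1d2 changed by -0.47 ± 0.20 (edgeR adjusted p = 0.0863, and 0.0479 with the replicate block).

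Receptors were exchanged at the level of RNA. Among cytokine receptors 15 of 44 rose and 14 fell, but 9 rose and 16 fell under library totals, and 9 fell without stimulated replicate 1. Il15ra, the receptor that presents interleukin 15, went from 2.28, 2.31 and 1.5 to 35.9, 33.7 and 27.9 CPM (3.99 ± 0.25), and Il6st, the shared subunit gp130, rose by 2.44 ± 0.13. Ifngr1, a subunit of the interferon gamma receptor, fell from 2007, 1337 and 1834 to 283, 184 and 226 CPM (-2.90 ± 0.22). In the TNF receptor superfamily 8 of 21 rose and 1 fell, with 11 and 2 under the replicate block and 7 and 4 under library totals. Tnfrsf12a, Fas and Tnfrsf25 rose by 2.13, 1.82 and 1.61. G protein-coupled receptors rose in 17 of 44 cases and fell in 15, but 14 rose and 17 fell under library totals. With TMM their changes ranged from -5.31 to 3.33, with 14 called at least 2-fold higher and 12 at least 2-fold lower. Gpr183, the oxysterol receptor that guides cells in lymphoid tissue, rose from 141, 139.7 and 122 to 1175, 1162 and 1043 CPM (3.07 ± 0.15), and Ptger4, a receptor for prostaglandin E2, rose by 2.64 ± 0.15.

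In cyclic AMP signalling 6 of 29 rose and 8 fell, against 2 and 15 under library totals. The shares with TMM, 20.7% and 27.6%, were near those of all genes. The phosphodiesterases again split, Pde4b rising by 1.36 ± 0.15 and Pde3b falling by 2.50. In TGF-beta and BMP signalling 8 of 24 rose and 7 fell, but 3 rose and 9 fell under library totals, and 6 rose and 8 fell without unstimulated replicate 2 or both replicate 2 libraries. The receptors Tgfbr2 and Tgfbr3 fell by 1.53 and 1.46, while the repressor Tgif2 rose by 2.32. Nuclear receptors rose in 8 of 25 cases and fell in 5, but 6 rose and 9 fell under library totals. The 3 Nr4a genes, which are immediate-early receptors, rose by 4.72, 3.87 and 3.46 for Nr4a1, Nr4a3 and Nr4a2, and Rara, a retinoic acid receptor, by 2.69. Rarg fell by 1.97.

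Of 21 integrins and adaptors 4 rose and 7 fell, with 2 rises when unstimulated replicate 1 or 3 or stimulated replicate 2 or 3 was left out. Without both replicate 2 libraries 6 rose and 5 fell, so the majority turned. Itga6 fell by 2.58 and Itga4 by 1.69.

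Chromatin enzymes moved gene by gene. Of 54 histone lysine methyltransferases and demethylases 16 rose and 17 fell, against 9 and 30 under library totals. Rises were more numerous than falls with all 12 libraries in the fit (15 and 11), without CsA-stimulated replicate 2 in that fit (16 and 15), with DESeq2 (17 and 16), without stimulated replicate 2 (14 and 13) and without both replicate 2 libraries (16 and 12). Kdm6b, which removes the Polycomb methyl mark from histone H3, went from 157, 89.8 and 100.1 to 1150.1, 1006 and 1109.6 CPM (3.24 ± 0.23), and Dot1l, which methylates histone H3 at transcribed genes, from 47.7, 43.8 and 35.9 to 389, 364 and 389 CPM (3.16 ± 0.15). Suv39h2, a methyltransferase of heterochromatin, rose by 3.59 ± 0.20 and Ezh2, the Polycomb methyltransferase, by 1.49 ± 0.19. Setd1b fell by 2.11. In the histone acetylation list 9 of 37 rose and 14 fell, with Hdac7 higher by 1.59 and Kat2b lower by 1.67. Of 17 genes of DNA methylation 7 rose and 6 fell, but 7 rose and 8 fell under library totals. Tet2, which oxidises 5-methylcytosine, went from 17.1, 21.1 and 13.7 to 102, 101 and 102 CPM (2.55 ± 0.18), Dnmt3b rose by 2.46 ± 0.18, and Mbd4 fell by 2.66.

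The Zfp zinc finger genes were the largest family examined. Of 313 tested, 116 fell (37.1%, against 24.7% of all genes) and 36 rose, with a median of -0.59 against -0.06 over all genes. Zfp101, Zfp69 and Zfp386 changed by -2.72, -3.24 and -3.93, and Zfp593, which acts in ribosome assembly, rose by 3.08 ± 0.30. The NFY motif was in 31.9% of the 229 matched promoters of the family.

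Genes of the interferon response did not move together. Of 35 interferon-stimulated genes 16 fell and 6 rose, with a median of -0.56. Ifit2 went from 34.8, 25.1 and 21.1 to 1.78, 6.06 and 3.2 CPM (-2.86 ± 0.42), and Sp100 fell by 2.18. Of 18 GBP and IRG GTPases, also known as interferon-inducible, 11 rose and 1 fell (2 without unstimulated replicate 2), with a median of 1.11. Gbp4 went from 406, 318 and 335 to 2787, 2082 and 2704 CPM (2.84 ± 0.19), and Gbp8, Gbp5 and Gbp9 rose by 2.31, 2.28 and 2.27. Several Gbp genes are close copies, so reads may be split among them.

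In the hypoxia pathway 6 of 17 rose and 8 fell. Egln3, an oxygen sensor, and Ndrg1 rose by 2.04 and 2.32, whereas Pdk1, Bnip3 and Bnip3l, also targets of HIF1, fell by 2.58, 1.67 and 1.69. Of 20 genes of the NRF2 and thioredoxin systems 8 rose and 2 fell, against 5 and 3 under library totals. Srxn1, sulfiredoxin, went from 2.72, 5.09 and 4.82 to 45.1, 37.5 and 43.9 CPM (3.32 ± 0.26), Txnrd1 rose by 2.37 ± 0.29, and Keap1, the inhibitor of NRF2, fell by 1.30. For comparison, 26 of 31 classic cytokine and chemokine genes rose, with a median of 6.07, and their share of all counts went from 0.136 to 0.221% to 1.11 to 1.38%. Of their 25 matched promoters 36.0% held the letters TATAAA on either strand, against 6.38% of all. The median share of G and C in these promoters was 47.6%, against 60% in all matched promoters. Whether base composition accounts for the TATAAA difference was not tested.

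The largest single rises outside the cytokines included genes barely detected at rest. F3, tissue factor, had no count in the 3 unstimulated libraries and 875 in the stimulated ones, at least 545-fold higher against a floor of 3 counts over the unstimulated group. Crabp2, a carrier of retinoic acid, had 2 counts against 407, a ratio of 380 with a counting interval of 105 to 3148. Mfsd2a, a lipid transporter, went from 2.39, 6.07 and 1.22 to 421, 338 and 298 CPM (6.77 ± 0.61), and Sema7a, a membrane semaphorin, from 0.707, 3.7 and 0.166 to 138, 167 and 128 CPM (6.57 ± 0.92). Crtam, Utf1 and Tom1 rose by 6.56, 6.69 and 5.86, and Mir155hg, the host transcript of miR-155, by 5.61 ± 0.21. Amy2a5 also ranked here, but it has near-identical copies and its reads cannot be assigned with certainty. Among the largest falls were Crebl2 (-5.68), Rhod (-4.21) and the long noncoding RNA gene AI480526 (-4.26). Crebl2 went from 17, 8.73 and 18.4 to 0.334, 0.271 and 0.228 CPM.

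Transcripts of a gene could also part ways. Of 6319 genes with at least 2 tested transcripts, 24 had 1 called higher and another called lower under added conditions. Both changes had to be at least 2-fold, with at least 5 CPM in the higher group and no overlap of the groups. Without these conditions, 12.2% of all transcripts tested were called higher and 11% lower. With the replicate block 11 genes met all conditions. Leaving out 1 library gave 12 without stimulated replicate 1 to 34 without unstimulated replicate 2, so the number is not stable. Only Mef2d, Mrpl38, Sdf4 and Zc3hav1 were found under each single leave-out, library totals and the block. Mef2d, a transcription factor regulated by calcium, had its short transcript Mef2d-202 of 1767 bases go from 8.25, 6.88 and 7.07 to 19.3, 24.5 and 17.9 CPM. Its long transcript Mef2d-201 of 5401 bases went from 122.7, 101.4 and 98.2 to 33.6, 42.3 and 45.3 CPM. The gene as a whole was not called, at 0.27. Transcript counts are kallisto estimates that divide shared reads, and their own estimation error was not used here.

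In Sdf4 the transcript with a retained intron, Sdf4-206, rose by 2.70 and the coding Sdf4-201 fell by 1.36. Mrpl38 showed the same kind of split, with 1.58 for the retained-intron transcript Mrpl38-205 and -2.12 for the coding Mrpl38-201. In Zc3hav1, an antiviral RNA-binding protein, the shorter coding transcript Zc3hav1-201 was listed at 0 in all unstimulated libraries and at 26.5, 22.7 and 7.47 CPM in stimulated ones. Its longer form Zc3hav1-203 fell by 2.48. Over the whole libraries retained-intron transcripts held about the same share, 4.14 ± 0.37% unstimulated and 4.2 ± 0.10% stimulated (SD, n = 3, two-sided exact permutation p = 0.9).

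Protein-coding genes called at least 16-fold higher, 99 in all, had a median span of 9.38 kb and 5 exons, against 23.5 kb and 8 exons over all 11466 protein-coding genes tested. Classic cytokines and chemokines were not left out of these genes. Of 31 tested, 26 rose, with a median change of 6.07. Values without them were not computed. The 28 called at least 16-fold lower were shorter than all genes too, with medians of 14.3 kb and 5.5 exons. The nonamer TTATTTATT, the core of AU-rich elements that target mRNAs for rapid decay, was searched on the sense strand in the 3′ untranslated region of the most counted transcript. It was found in 17.9% (17 of 95) of the genes at least 16-fold higher, 9.58% of those at least 2-fold higher, 5.33% of those at least 2-fold lower and 7.20% of all. Longer regions hold it more often by their length alone. Within regions of 500 to 1000 bases the shares were 9.21, 2.97 and 4.59% for the at least 2-fold higher, at least 2-fold lower and all genes, and within regions of 2000 to 4000 bases 12.7, 10.7 and 12.8%.

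**Figure D5:**
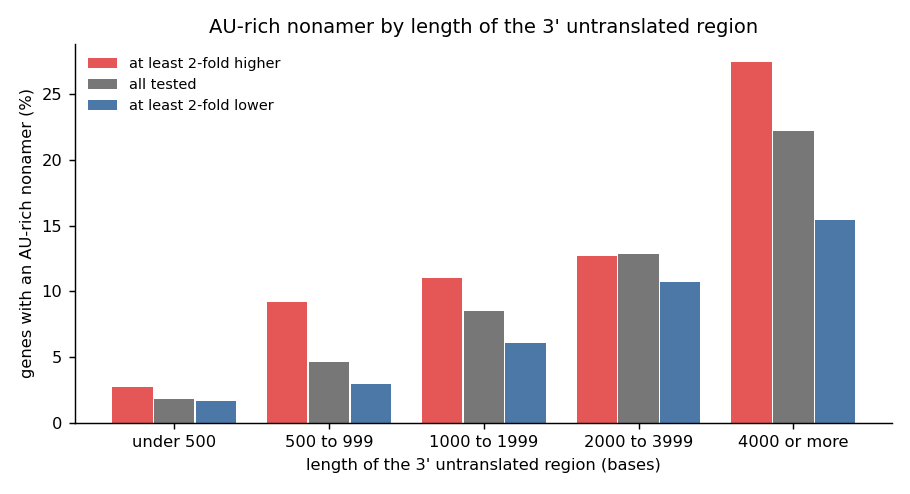
Percent of genes whose 3′ untranslated region holds the AU-rich nonamer, by length of that region in bases, for all tested genes and for genes at least 2-fold higher or lower. The higher genes stand above the lower genes in each length class, with the widest ratio at 500 to 1000 bases.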

How the data were processed

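The authors used cutadapt and kallisto with the build mm10, per the submitters' processing notes; versions and the transcript annotation are not given in the sources used here. Per the file headers, each deposited table gives, per transcript, an estimated count that the authors did not scale for depth, TPM (scaled for length and depth within a library), and length and effective length in bases. Transcripts were matched by identifier to GENCODE M21 (108214 of 109617, and 92.5% of these had the annotated length), and the unmatched ones held 0.495 to 0.628% of a library's counts.

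Counts were summed per gene, rounded and tested in R 4.3.3 with edgeR 4.0.16 on the 6 vehicle libraries: filterByExpr (minimum count 10, minimum total 15), TMM scaling and robust quasi-likelihood tests, with calls at an adjusted p (Benjamini-Hochberg) under 0.05. The SE is the absolute log2 fold change over the square root of F. Transcripts were tested in the same way. An opposite pair needed both calls, changes of at least 2-fold, at least 5 CPM in the higher group and groups that do not overlap. Scripts were tested on simulated data. TMM factors differed between groups, so totals-based scaling was an alternative, beside RLE, upper quartile, other filters, DESeq2 1.42.0, fits with the other libraries and leave-outs.

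The gene lists and members were chosen with earlier results of these data known. Genes were named by a rule: 24 fixed genes; of the called genes with at least 10 CPM, the 12 that rose and the 12 that fell most, with groups that do not overlap, outside the cytokines; and per list up to 4 called members in the main and 2 in the other direction. Any other gene is marked in the text as picked after seeing its values. Equal replicate numbers were examined as pairs: their deviations from the group means correlated at 0.159, 0.348 and 0.226 across genes, and unequal numbers at -0.234 to 0.029. Deviations within a group cancel out, so these values are not independent of each other. Libraries of equal number were more alike, and what they share was not tested. Main tests did not use the replicate number, and a block for it was an alternative. Promoters are from RefSeq (GRCm38.p6) and were matched for 8634 of 13360 genes whose start lay within 500 bases of that of the most counted transcript.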

Additional observations from a re-analysis of the deposited data

How the results depend on the processing

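Under scaling to library totals 1778 genes rose and 5782 fell, 1114 of them at least 2-fold higher and 4214 at least 2-fold lower, against 3115, 3300, 2024 and 2230 with TMM. Calls then were 23.5% higher, against 48.6% with TMM. In 17 of the 72 lists the majority direction turned under library totals, and in 4 under upper quartile scaling. It also turned in 7 lists under at least 1 of DESeq2, no low-count filter, fits with the other libraries and leave-outs, among them the mitochondrial ribosome, histone lysine enzymes, TGF-beta signalling, diacylglycerol signalling and integrins. Upper quartile scaling gave 2737 rises and 3725 falls (42.4% higher). Across the other alternatives the counts of genes stayed within 1.5 times. The replicate block gave 3471 rises and 3578 falls, DESeq2 3333 and 3195, and leaving out 1 library 2633 to 3140 and 2744 to 3285. The block changed 2 calls among the named genes, Mcl1 and Nr1d2, and moved 8 lists by over 1.5 times. Genes with opposite transcripts numbered 11 with the block and 12 to 34 when 1 library was left out, against 24. With only the 100 bases before the start, the AP-1 motif was 0.476 percentage points more frequent among genes at least 2-fold higher than among all, against 1.53 with 250 bases, and the excess of the E-box in ribosome assembly promoters was 0.094 against 2.93. Under library totals Atp6v1b2 (-0.12) and Ythdf3 (-0.052) reversed; the cause was not tested. Of 393 named genes that were called, 345 kept their call and direction under all 16 alternatives. Having 3 libraries a group and depths of 10523816 to 15197221 counts limits what could be called among low genes.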

Other observations

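Other classes of gene were read outside the lists. Of 111 T cell receptor variable segments tested, 34 rose and 4 fell, with a median log2 change of 0.85. Of 251 processed pseudogenes 61 rose (24.3%, near the share of all genes) and 16 fell (6.37%), with a median of 0.49. Their transcripts held 0.923 ± 0.074% of counts in unstimulated and 1.20 ± 0.02% in stimulated libraries (SD, n = 3; two-sided exact permutation p = 0.1, the smallest that 3 against 3 can give). Pseudogenes share sequence with their parent genes, and which of them the reads came from was not tested. Of 299 lincRNA genes 43 rose (14.4%) and 45 fell (15.05%), both below the shares of all genes. Transcripts annotated for nonsense-mediated decay held 2.86 ± 0.20% and 3.18 ± 0.06% of counts (exact permutation p = 0.1).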
